A study of Mus musculus with 21 samples.

Results

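The comparison described here sets 2 injuries of the mouse small intestine side by side in the same sorted cells: ablation of Lgr5-expressing cells and irradiation with 10 Gy. Its members are 8 arrays of the series' 21, chosen by their labels, namely 2 arrays of CD24lo and 2 of CD24hi cells labelled Lgr5-ablated (titled DT) and 2 of each fraction labelled 10Gy (titled irradiation). All 8 hold RNA of TdTomato-positive cells, which the labels call Mist1+, gated on CD24 and sorted by flow cytometry. Another 4 arrays, 2 of each fraction, come from the untreated control group and are used only where a value against untreated cells is given; the doxorubicin and NICD arrays enter only the estimate of the spread, and the 1 array of whole intestine enters nothing. The labels spell out neither DT (an abbreviation often used for diphtheria toxin) nor the allele that made cells sensitive to it, so the agent without ablation has no group of its own and the agent and the loss of the cells cannot be told apart. They give no time after either injury, no strain, age or sex, and not how the TdTomato reporter was driven, and they do not say whether the 2 arrays of a group, or the CD24lo and CD24hi arrays of 1 number, come from separate animals. Every p-value therefore measures the spread between these arrays, which may be technical, and a time after injury that differs between the groups cannot be told apart from the kind of injury.

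Lgr5 marks the cycling stem cells at the base of the intestinal crypt. When these cells are lost, secretory progenitors, among them cells that express the transcription factor Mist1 (gene Bhlha15), are known to be able to return to the stem cell state and refill the crypt. Irradiation also removes stem cells, but it breaks DNA in every cell it reaches, and broken DNA activates p53, a transcription factor that stops the cell cycle through targets such as Cdkn1a and starts cell death through targets such as Bbc3. Interferon-gamma, a cytokine made mainly by T cells and natural killer cells, acts on epithelial cells through its receptor and induces chemokines, guanylate-binding proteins and, by way of the coactivator CIITA, the MHC class II proteins that present peptides to CD4+ T cells.

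Levels below are log2(signal + 16), where signal is the deposited array intensity, so a signal of 0 would read 4, and a difference is the level after Lgr5 ablation minus that after irradiation. Unless a fraction is named, it is the mean of the differences within CD24lo and within CD24hi cells, with its standard error (SE) from limma and a p-value adjusted by the Benjamini-Hochberg method over all 11854 genes tested; a gene is called where that p is under 0.05. The sorted cells carried the epithelial genes in all 8 arrays, with Cdh1 between 13.46 and 13.83 and Epcam between 12.39 and 12.70. The Paneth cell gene Lyz1 read 14.11 to 14.56 and the goblet cell gene Muc2 14.01 to 14.75. Bhlha15 itself read 8.59 to 9.41 in the CD24lo arrays and 10.85 to 12.21 in the CD24hi arrays. Cd24a followed the gate, at 12.95 to 13.55 in CD24lo and 13.83 to 14.26 in CD24hi, and the ranges of the fractions did not overlap. Against 7.3, the level of the low-signal filter, the T cell gene Cd3e read at most 6.76, the macrophage gene Csf1r at most 7.28 and the fibroblast gene Col1a1 at most 6.41. The endothelial gene Pecam1 reached 7.62, the B cell gene Cd79a 8.12 and the pan-leukocyte gene Ptprc 9.24. In bulk samples fewer cells of a type and less RNA per cell cannot be told apart. Between the arrays of each pair, Pearson's r over genes was 0.947 to 0.976.

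Over both fractions 1635 of 11854 genes were called, 13.8% of those tested. Of these, 964 (8.13%) were higher after Lgr5 ablation and 671 (5.66%) were higher after irradiation, that is, lower after ablation. The median difference over all genes was -0.0155, and the size of a called difference had a median of 0.79 among the higher and of -0.74 among the lower genes. Among the 964, the difference had the same sign in both fractions for 953, and for the 671 this held for 665. In CD24lo cells alone 260 genes were called (2.19%), 137 higher (1.16%) and 123 lower (1.04%), and in CD24hi cells alone 1060 (8.94%), 660 higher (5.57%) and 400 lower (3.37%). A test of the difference between the fractions called 5 genes (0.0422%), 4 with the higher value in CD24hi (0.0337%) and 1 with the lower (0.00844%), so the larger count in CD24hi cells is not by itself a difference between the fractions. The share of members called in 20 gene lists, in each direction, is plotted beside that of all genes.

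**Figure D1:**
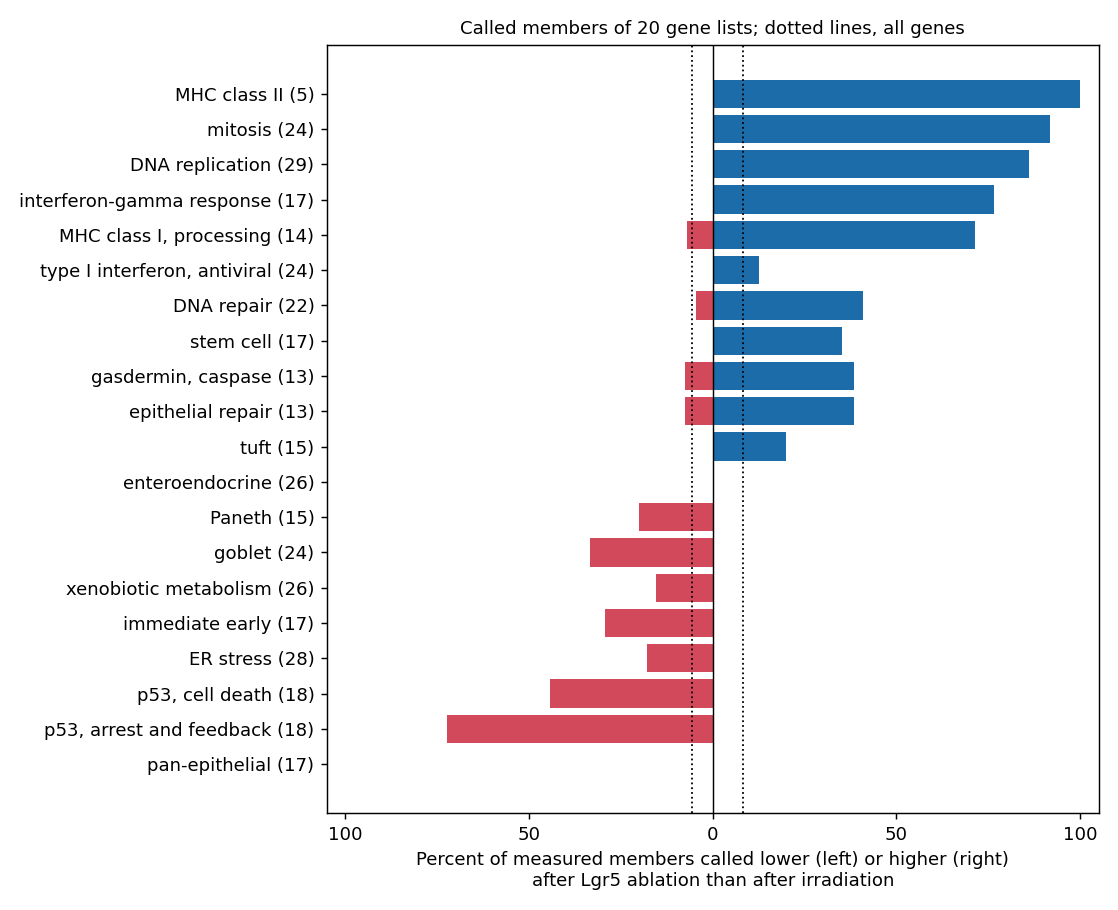
Percent of the measured members of 20 gene lists (number measured in parentheses) called higher (blue, right) or lower (red, left) after Lgr5 ablation than after irradiation over both fractions, limma, adjusted p under 0.05. Dotted lines mark the 8.13% and 5.66% of all genes called in each direction; the MHC class II, mitosis and DNA replication bars reach furthest right and the p53 bars furthest left.

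Lgr5, the gene that names the ablated cells, checks the labels and was not different between the injuries. After ablation it read 7.98 and 6.53 in the CD24lo arrays and 10.17 and 9.65 in the CD24hi arrays. After irradiation it read 5.19 and 7.45 in CD24lo and 10.96 and 10.52 in CD24hi, against 8.90 and 8.44 and 11.48 and 10.95 in untreated cells. Within CD24lo the injuries overlap, and within CD24hi the ablated arrays are the lower ones. The difference was 0.06 ± 0.40 (SE, 4 arrays against 4, adjusted p = 0.95), and its sign turned when CD24lo irradiated replicate 1 was left out (-0.51). Against untreated cells Lgr5 stood at -1.36 ± 0.40 after ablation, which was not called (adjusted p = 0.12), and was lower by -1.41 ± 0.40 after irradiation (adjusted p = 0.026). Lgr5 signal was above the middle of the array in the CD24hi cells of both groups.

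Other genes of the stem cell list did differ. Of 17 measured, 6 were called higher after ablation and none lower, with a median of 0.29. Olfm4, a secreted glycoprotein that marks the same crypt base cells, read 12.31 and 11.95 in CD24lo and 12.79 and 13.20 in CD24hi after ablation. In the irradiated arrays it read 9.17 and 10.07 in CD24lo and 10.64 and 11.57 in CD24hi. All 4 ablated arrays lie above all 4 irradiated ones, by 2.20 ± 0.22 (adjusted p = 5.9e-06), and both groups lie below the untreated arrays, which read 13.22 to 14.32. Ascl2, a transcription factor of the stem cell programme and a Wnt target, was higher by 1.93 ± 0.35 (adjusted p = 0.0014), although its arrays overlap in CD24lo, where ablated replicate 2 read 7.35 and irradiated replicate 2 read 7.44. The water channel Aqp4 (2.01 ± 0.19), the Myc-responsive gene Cdca7 (1.27 ± 0.17) and the Wnt feedback gene Axin2 (0.87 ± 0.16) were also called. The list counts were 6 to 8 when single arrays were left out. Of the 17 Wnt target genes measured 2 were called, Ascl2 and Axin2, a share near the 8.13% of all genes called higher.

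The p53 targets were higher after irradiation. Of 18 measured genes of p53 arrest and feedback, 13 were called lower after ablation and none higher, against 5.66% of all genes called lower, with a list median of -1.46 against -0.0155 over all genes. Of 18 genes of p53-dependent cell death and related targets, 8 were lower and none higher, with a median of -0.67. Leaving out any 1 of the 8 arrays gave 13 or 14 and 6 to 8 lower genes. Phlda3, an inhibitor of AKT signalling, read 5.71 and 4.49 in CD24lo and 8.43 and 8.28 in CD24hi after ablation. The irradiated CD24lo arrays read 10.43 and 10.29 and the CD24hi arrays 10.28 and 10.64. The irradiated arrays reach nearly the same level in both fractions, while the ablated arrays differ between fractions, and no arrays overlap (-3.68 ± 0.31, adjusted p = 1.1e-06). Eda2r, a death receptor of the TNF receptor family, showed the same order, with 6.46 and 5.78 in CD24lo and 8.80 and 9.35 in CD24hi after ablation against 10.14 and 10.51 and 11.30 and 11.23 after irradiation (-3.20 ± 0.44, adjusted p = 1.4e-04).

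Cdkn1a, the cell cycle inhibitor p21, read 11.47 and 11.94 in CD24lo and 12.60 and 12.16 in CD24hi after ablation. In irradiated cells it read 13.95 and 13.46 in CD24lo and 13.34 and 13.68 in CD24hi. The lowest irradiated array lies above the highest ablated one (-1.56 ± 0.20, adjusted p = 8.4e-05). Ccng1, a cyclin that feeds back on p53, was lower by -1.59 ± 0.15, Trp53inp1, a stress-response cofactor of p53, by -1.88 ± 0.24, and the spindle gene Psrc1 by -2.15 ± 0.26. Of the cell death genes Aen, a nuclease, was lower by -1.11 ± 0.16 and Bbc3, which encodes the BH3 protein PUMA, by -1.02 ± 0.30 (adjusted p = 0.032), while Perp, a membrane protein, stood at -0.36 ± 0.13 and was not called (adjusted p = 0.077). The call of Bbc3 was lost in each of 7 fits that left out 1 array. Polk, a DNA polymerase that reads past lesions, was lower by -1.23 ± 0.14, and Dcxr, a carbonyl reductase, by -2.23 ± 0.17.

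The promoters of Cdkn1a and Ccng1 are shown because their genes are among the most abundant of the p53 list. Each line gives the 250 bases before the RefSeq start, 5′ to 3′ on the gene's strand, in build GRCm38.p6, with matches to the p53 half-site in capitals; Cdkn1a lies on the plus strand at chr17:29090729-29090978 and Ccng1 on the minus strand at chr11:40755287-40755536.
Cdkn1a: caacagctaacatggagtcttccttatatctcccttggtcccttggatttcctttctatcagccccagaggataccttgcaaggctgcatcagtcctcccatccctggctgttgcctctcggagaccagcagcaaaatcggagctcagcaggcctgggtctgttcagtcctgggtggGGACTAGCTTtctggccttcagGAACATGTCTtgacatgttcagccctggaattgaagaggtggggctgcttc
Ccng1: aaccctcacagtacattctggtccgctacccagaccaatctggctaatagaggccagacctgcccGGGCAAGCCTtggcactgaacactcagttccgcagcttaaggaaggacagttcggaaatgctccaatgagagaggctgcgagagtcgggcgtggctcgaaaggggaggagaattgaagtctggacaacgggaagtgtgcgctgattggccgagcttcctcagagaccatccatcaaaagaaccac
Cdkn1a held 2 matches and Ccng1 held 1. Of the 16 arrest and feedback genes with a promoter entry, 6 held at least 1 match (37.5%), as did 7.18% of the promoters of all 27025 genes in the table, searching both strands. Of the 15 cell death genes with an entry, 2 held one (13.3%). The other lists searched ranged from 0% (MHC class II, 3 promoters) to 44.4% (interferon-gamma response, 4 of 9). A high share is thus not particular to the p53 lists. These are letter matches in a short window, and a window without one says nothing of p53 binding elsewhere.

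**Figure D2:**
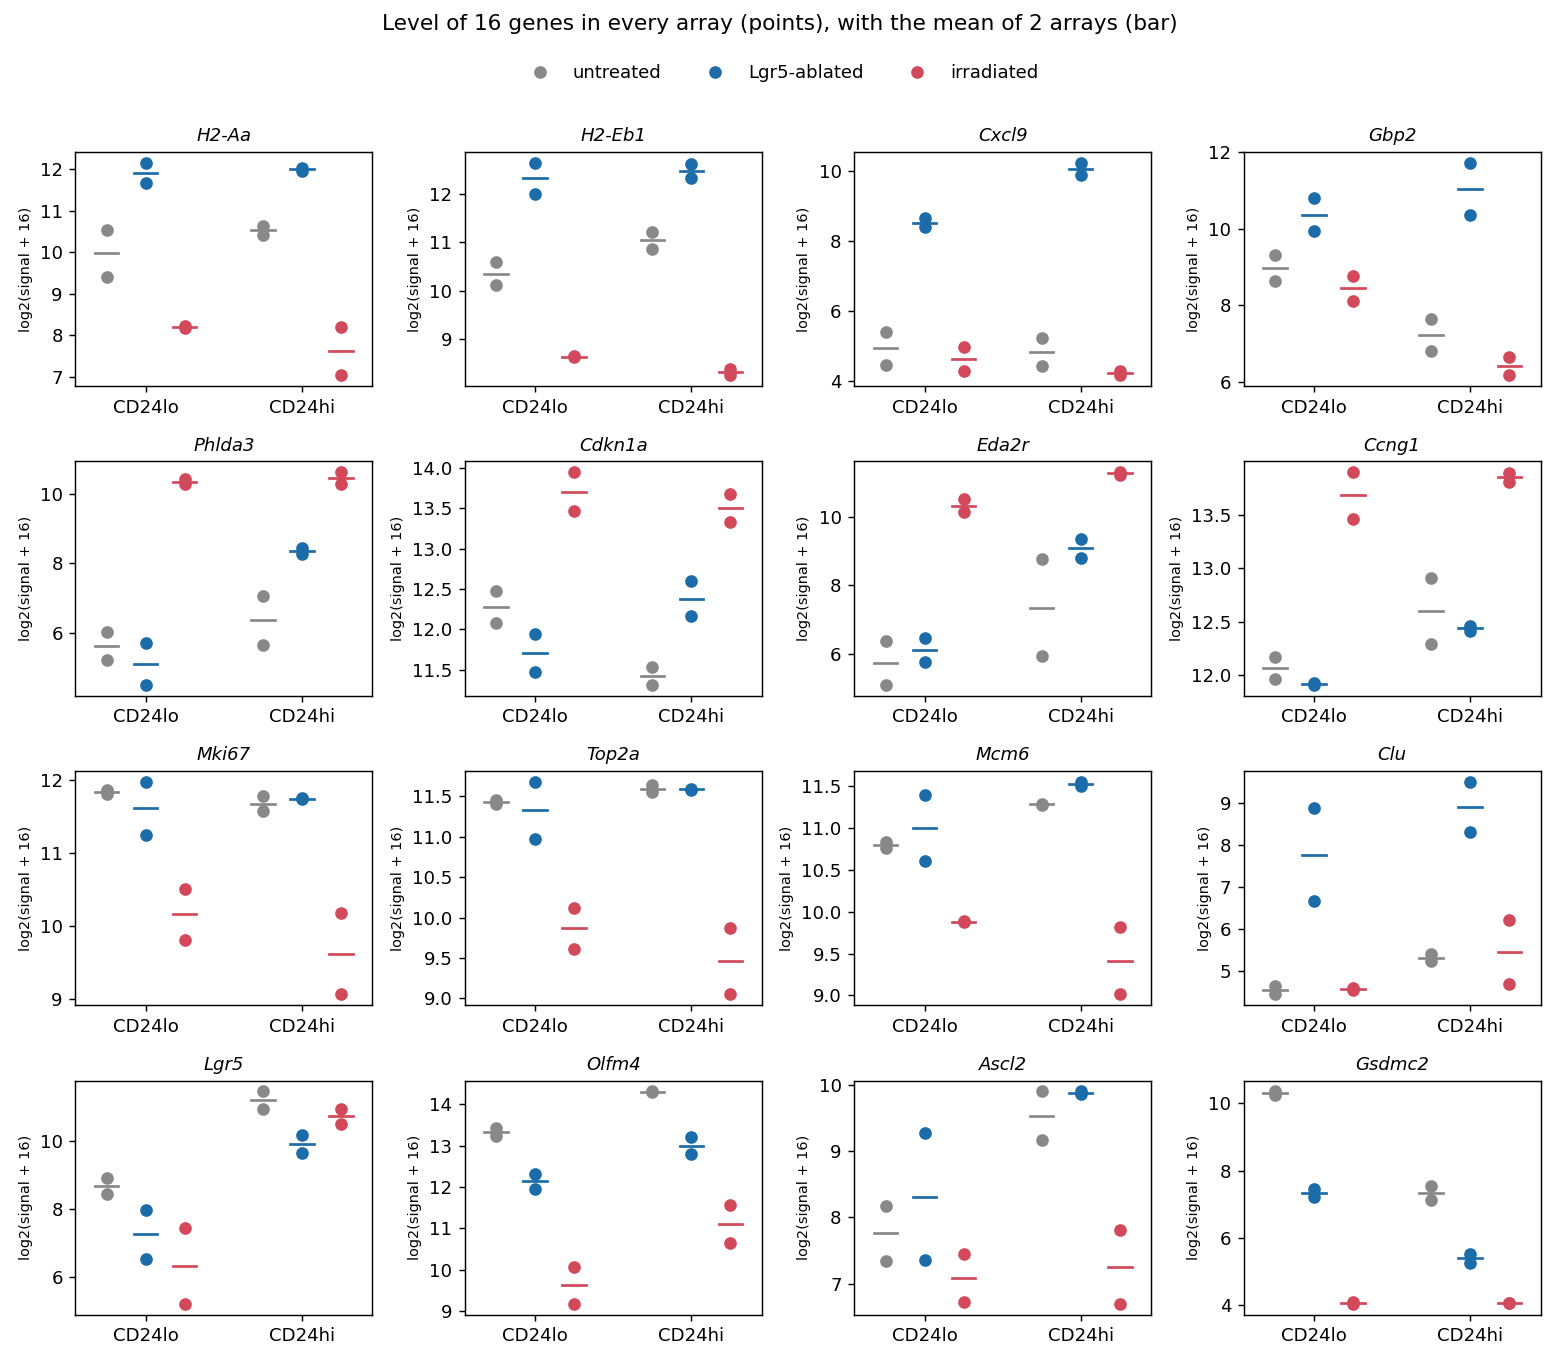
Level of 16 genes in each of the 12 arrays, as log2(signal + 16) on a scale of its own per gene; points are arrays, bars the mean of 2, and colours the condition. The irradiated arrays lie lowest for H2-Aa, H2-Eb1, Mki67 and Top2a and highest for Phlda3, Cdkn1a, Eda2r and Ccng1 in both fractions, and the ablated arrays stand above the others for Cxcl9 and Clu.

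Cell cycle genes ran the other way. Of 24 measured mitosis genes 22 were called higher after ablation and none lower, with a median of 1.41, and of 29 DNA replication genes 25 were higher and none lower, with a median of 1.15, against 8.13% of all genes called higher. Leaving out single arrays gave 22 mitosis genes each time and 24 or 25 replication genes. Mki67, the proliferation marker Ki-67, read 11.97 and 11.25 in CD24lo and 11.75 and 11.74 in CD24hi after ablation. After irradiation it read 10.51 and 9.81 in CD24lo and 9.06 and 10.17 in CD24hi. The ablated arrays surround the untreated ones (11.57 to 11.87) and the irradiated arrays lie below both (1.79 ± 0.22, adjusted p = 4.9e-05). Top2a, the topoisomerase that untangles chromosomes, was higher by 1.79 ± 0.19, the checkpoint kinase Bub1 by 1.63 ± 0.21, the mitotic kinase Aurkb by 1.62 ± 0.15 and the survivin gene Birc5 by 1.62 ± 0.23. Plk1 (0.21 ± 0.17, adjusted p = 0.46) and Ube2c (0.15 ± 0.16, adjusted p = 0.60), which are among the 3 mitosis genes of highest level, were the 2 not called.

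Of the replication genes, Pole, the leading-strand polymerase, was higher by 1.70 ± 0.22, the helicase subunit Mcm6 by 1.62 ± 0.18 and cyclin E1 (Ccne1) by 1.58 ± 0.29. Mcm6 read 11.39 and 10.61 in CD24lo and 11.56 and 11.50 in CD24hi after ablation, against 9.89 and 9.88 and 9.01 and 9.82 after irradiation, so no arrays overlap. Pcna, the sliding clamp and itself a p53 target, was not called (0.30 ± 0.15, adjusted p = 0.21). The difference was larger in CD24hi than in CD24lo for 23 of the 24 mitosis genes and 27 of the 29 replication genes, while 53.4% of all genes had the larger value in CD24hi; none of them passed the test of the difference between the fractions. Of 22 DNA repair genes 9 were called higher after ablation, against 8.13% of all genes. Among them were Rad51ap1 (1.56 ± 0.21), Exo1 (1.51 ± 0.24) and Brca2 (0.97 ± 0.21), which act in homologous recombination, and the checkpoint kinase Atr (0.89 ± 0.13). The count was 5 without CD24hi irradiated replicate 1 and in the fit of the 8 compared arrays with fraction as a block. Mgmt, which removes alkyl groups from guanine, was the 1 repair gene called lower (-1.42 ± 0.33, adjusted p = 0.0084).

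Promoters of Top2a and Mki67 are shown as examples of the mitosis list. The capitals mark CCAAT (its reverse ATTGG) and the cell cycle element CHR, here TTTGAA (its reverse TTCAAA), each read on both strands in the 250 bases before the start; both genes lie on the minus strand, Top2a at chr11:99024190-99024439 and Mki67 at chr7:135716380-135716629.
Top2a: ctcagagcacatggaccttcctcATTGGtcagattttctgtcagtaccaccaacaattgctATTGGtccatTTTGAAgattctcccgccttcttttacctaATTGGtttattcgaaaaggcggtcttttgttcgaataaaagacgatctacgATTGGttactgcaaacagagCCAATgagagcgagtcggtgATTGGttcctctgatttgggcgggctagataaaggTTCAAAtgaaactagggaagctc
Mki67: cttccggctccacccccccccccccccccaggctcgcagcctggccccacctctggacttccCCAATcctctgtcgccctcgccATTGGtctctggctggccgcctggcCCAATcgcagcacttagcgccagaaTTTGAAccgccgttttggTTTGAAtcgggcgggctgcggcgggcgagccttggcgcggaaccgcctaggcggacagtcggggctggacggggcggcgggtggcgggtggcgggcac
Top2a held 8 matches and Mki67 held 5. CCAAT was found in 17 of the 20 mitosis promoters in the table (85%), against 34.5% of all 27025, and TTTGAA in 7 of 20 (35%) against 16.3%. Among the 9624 promoters of tested genes the shares were 36.2% and 10.6%, and among 24 replication promoters 62.5% and 12.5%, so whether the replication share of TTTGAA lies above or below the background depends on which one is taken. The other lists searched ranged for CCAAT from 33.3% (p53 cell death) to 75% (p53 arrest and feedback, 12 of 16). For TTTGAA they ranged from 0% (MHC class II, 3 promoters) to 33.3% (interferon-gamma response, 3 of 9). The mitosis shares are the highest, but neither run is particular to that list.

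MHC class II genes were higher after ablation, every measured one. All 5 of 5 were called in both fractions combined and in each fraction alone, with a median of 3.92. Of all genes 8.13% were called higher over both fractions, 1.16% in CD24lo and 5.57% in CD24hi. H2-Eb1, a beta chain of the class II protein, read 11.99 and 12.64 in CD24lo and 12.32 and 12.62 in CD24hi after ablation. After irradiation it read 8.62 and 8.65 in CD24lo and 8.37 and 8.25 in CD24hi, and in untreated cells 10.12 to 11.22. The groups are far apart and the untreated arrays lie between them (3.92 ± 0.16, adjusted p = 2.2e-10). Cd74, the invariant chain that guides class II proteins, read 12.24 and 12.37 in CD24lo and 12.85 and 12.54 in CD24hi after ablation, against 8.44 and 8.81 and 8.44 and 8.29 after irradiation (4.003 ± 0.21, adjusted p = 4.6e-09). The alpha chain H2-Aa (4.04 ± 0.24), the peptide exchange subunit H2-DMa (3.67 ± 0.19) and the beta chain H2-Ab1 (2.35 ± 0.17) were called too. Leaving out any 1 array kept H2-Eb1 between 3.76 and 4.09.

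B cells and other antigen-presenting cells also carry class II proteins, so their markers are given beside these values. The 7 measured B and plasma cell genes summed to a signal of 3668 to 10706 in the CD24lo ablated arrays and 4257 to 7035 in the CD24lo irradiated arrays, ranges that overlap, and in that fraction H2-Eb1 differed by 3.69 and Cd74 by 3.68. In CD24hi cells they summed to 11505 and 38579 after ablation, the higher value in replicate 1, and to 3481 and 4279 after irradiation. Of the 7 genes 3 were called higher over both fractions (none in the fits of the 8 compared arrays alone), the antibody genes Ighm (2.34 ± 0.54), Jchain (1.52 ± 0.47) and Igha (1.27 ± 0.30), 1 without CD24hi ablated replicate 1 and 5 without replicate 2. Without CD24hi ablated replicate 1 the class II difference was as large, 4.06 for H2-Aa and 3.93 for Cd74. Of 16 T cell and intraepithelial lymphocyte genes 2 were called higher, the pan-leukocyte gene Ptprc (2.27 ± 0.49) and Cd69 (1.17 ± 0.31), and 1 in each of 4 fits that left out an array (CD24lo or CD24hi ablated replicate 1, CD24lo or CD24hi irradiated replicate 1). The 2 of 16 are 12.5%, against 8.13% of all genes called higher. The T cell genes summed to 4564 and 4803 in CD24lo and 3944 and 4345 in CD24hi cells after ablation. After irradiation they summed to 4198 and 4246 in CD24lo and 2906 and 3159 in CD24hi cells. In these sums, which weigh abundant genes most, the ablated arrays are higher in both fractions without overlap. So they are for all 5 class II and 9 of the 17 interferon-gamma response genes, and for 12.3% of all genes tested. The mean log2 level of the same 16 genes overlapped in CD24lo, at 7.17 and 6.995 after ablation and 6.49 and 7.05 after irradiation. In CD24hi it did not overlap. None of the 16 was called in CD24lo alone, where their median difference was 0.15. Of the 7 myeloid genes none was called. They summed to 5423 and 5904 in CD24lo after ablation and 7043 and 8711 after irradiation, the ablated arrays lower. In CD24hi they summed to 5824 and 10113 after ablation and 8880 and 9884 after irradiation. Of 3 stromal and endothelial genes 1 was called lower. These summed to 376 and 811 in CD24lo after ablation and 1289 and 2505 after irradiation. In CD24hi they summed to 745 and 2512 after ablation and 1506 and 1890 after irradiation. No marker list was at 0 in any array, and apart from these values the part of other cell types was not tested.

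Promoters of H2-Aa and H2-Eb1 are shown because these genes differ between the injuries in every array. Both held the Y box CTGATTGG, in capitals in the 250 bases before the start, a letter run that belongs to the conserved class II promoter module; H2-Aa lies on the minus strand at chr17:34287824-34288073 and H2-Eb1 on the plus strand at chr17:34305617-34305866.
H2-Aa: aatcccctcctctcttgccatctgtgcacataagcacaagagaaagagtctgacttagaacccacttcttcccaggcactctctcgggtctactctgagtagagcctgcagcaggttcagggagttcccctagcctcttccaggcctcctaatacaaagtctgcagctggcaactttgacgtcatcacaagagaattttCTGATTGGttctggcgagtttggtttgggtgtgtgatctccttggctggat
H2-Eb1: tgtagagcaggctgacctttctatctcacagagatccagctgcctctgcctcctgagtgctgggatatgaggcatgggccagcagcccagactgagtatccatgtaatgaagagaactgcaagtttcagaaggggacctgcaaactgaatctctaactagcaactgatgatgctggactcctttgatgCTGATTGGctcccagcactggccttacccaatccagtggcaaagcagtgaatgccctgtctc
The run was present in 2 of the 3 class II genes with an entry and in 4.07% of all 27025 promoters. The other lists searched ranged from 0% (type I interferon, 19 promoters) to 30% (mitosis, 6 of 20). The run contains CCAAT on the other strand.

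Interferon-gamma response genes were also higher after ablation, 13 of 17 measured with none lower and a median of 1.45, against 8.13% of all genes called higher. The count was 12 to 14 with single arrays left out and 8 in a fit of the 8 compared arrays alone with fraction as a block. Cxcl9, a chemokine that draws activated T cells, read 8.66 and 8.40 in CD24lo and 9.91 and 10.26 in CD24hi after ablation. After irradiation it read 4.27 and 4.96 in CD24lo and 4.26 and 4.15 in CD24hi, near the level of no signal, as it did in untreated cells (4.42 to 5.40). Of these 12 arrays the 4 ablated ones stand far above the rest (4.90 ± 0.33, adjusted p = 8.1e-08), and the size rests on the value added before the logarithm, being 6.85 with 1 and 3.31 with 64. Gbp2, a guanylate-binding GTPase of antimicrobial defence, read 10.80 and 9.95 in CD24lo and 11.74 and 10.36 in CD24hi after ablation, against 8.78 and 8.13 and 6.66 and 6.18 after irradiation (3.27 ± 0.30, adjusted p = 3.4e-06). The GTPases Iigp1 (4.53 ± 0.46) and Igtp (1.60 ± 0.20), Gbp8 (2.34 ± 0.31) and the transcription factor Irf1 (0.60 ± 0.12) were called as well. In CD24hi cells 14 of the 17 genes were called higher, against 5.57% of all genes, and in CD24lo 5, against 1.16%. Of the 17 only 1, Ido1, passed the test of the difference between the fractions. The 2 counts are thus not by themselves a difference between the fractions.

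The promoters of Gbp2, on the plus strand at chr3:142620413-142620662, and of Igtp, on the plus strand at chr11:58199306-58199555, are shown for the interferon-stimulated response element, here GAAA, any 2 bases and GAAA again on either strand, which is in capitals.
Gbp2: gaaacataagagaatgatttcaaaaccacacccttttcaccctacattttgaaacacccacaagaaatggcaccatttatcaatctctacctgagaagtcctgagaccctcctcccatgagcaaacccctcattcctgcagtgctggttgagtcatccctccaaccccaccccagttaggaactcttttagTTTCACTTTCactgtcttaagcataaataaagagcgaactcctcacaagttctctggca
Igtp: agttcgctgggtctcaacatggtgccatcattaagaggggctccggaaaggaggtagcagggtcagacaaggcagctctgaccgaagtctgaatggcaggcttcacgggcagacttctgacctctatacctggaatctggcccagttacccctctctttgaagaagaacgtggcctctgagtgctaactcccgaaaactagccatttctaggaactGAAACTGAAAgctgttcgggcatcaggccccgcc
In Gbp2 the match is in reverse, 49 bases before the start, and in Igtp it lies 24 bases before it. Of the 9 interferon-gamma response genes with an entry 7 held the element (77.8%), against 3.04% of all promoters, and 4 held the GAS motif TTCNNNGAA (44.4%, against 7.18%). The other lists searched ranged for the element from 0% (MHC class II, 3 promoters) to 47.4% (type I interferon, 9 of 19). For GAS they ranged from 0% (MHC class II, 3 promoters) to 20% (p53 cell death, 3 of 15). A high share of the element is thus not particular to the interferon-gamma list.

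Peptide processing for MHC class I followed in part. Of 14 measured genes 10 were called higher and 1 lower, against 8.13% and 5.66% of all genes, with a median of 0.55. The immunoproteasome subunits Psmb9 (2.28 ± 0.14) and Psmb8 (1.57 ± 0.12), the peptide transporter Tap2 (1.60 ± 0.19) and Nlrc5, the class I counterpart of CIITA (2.12 ± 0.20), led the list. Psmb9 read 12.11 and 12.48 in CD24lo and 11.73 and 11.89 in CD24hi after ablation, against 10.76 and 10.42 and 8.71 and 9.19 after irradiation, with no overlap in either fraction. The light chain B2m was not called (0.08 ± 0.15, adjusted p = 0.78), and the heavy chain H2-K1 was the 1 gene called lower (-0.63 ± 0.16, adjusted p = 0.015). H2-K1 lost its call without CD24lo ablated replicate 1, CD24lo irradiated replicate 1 or CD24hi irradiated replicate 1, and another probe set of the gene read 0.15, so its direction is uncertain. The type I interferon list was less clear, with 3 of 24 called (Ifit3, Ifit2 and Usp18), 12.5% against 8.13% of all genes called higher. That count was 0 without CD24hi ablated replicate 1 or CD24lo irradiated replicate 2, 1 without CD24lo ablated replicate 1 and 7 without CD24lo irradiated replicate 1. For all 24 the signed difference was higher in CD24hi than in CD24lo, with medians of 0.86 and -0.44, as it was for 53.4% of all genes. Its size, sign aside, was larger in CD24hi for 18 of them. None passed the test of the difference between fractions.

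**Figure D3:**
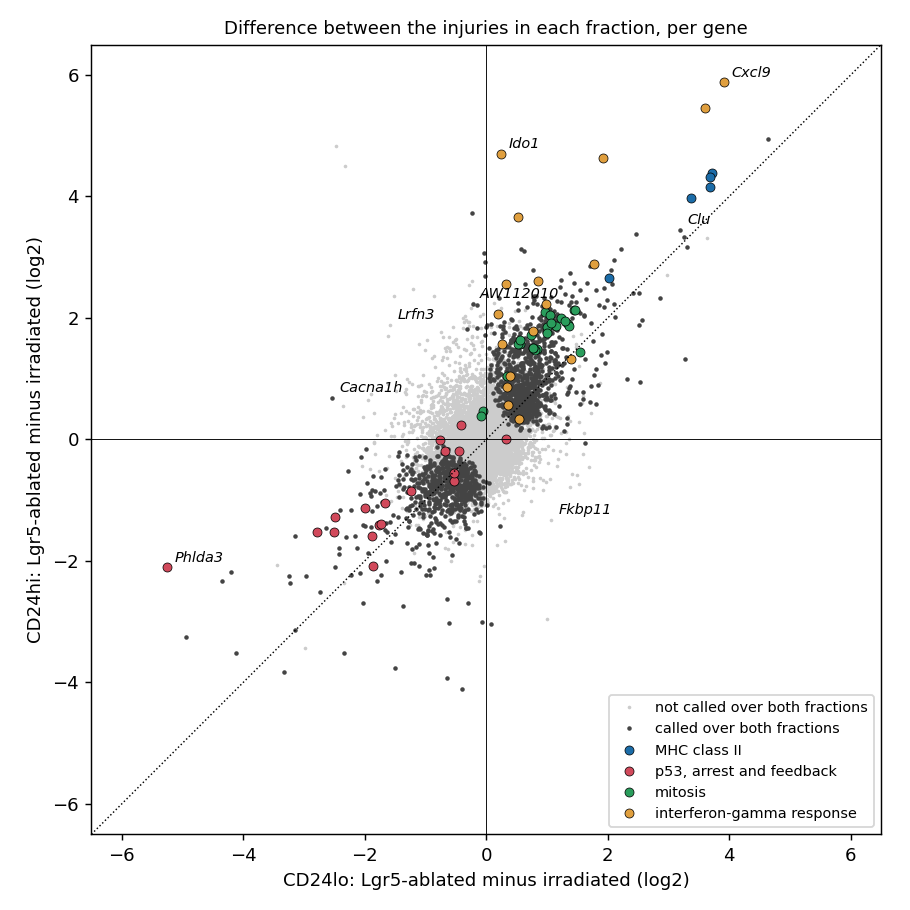
Difference between Lgr5-ablated and irradiated arrays for each of 11854 genes, log2, in CD24lo cells (horizontal) and in CD24hi cells (vertical); the dotted line marks equal differences. Dark points are genes called over both fractions. MHC class II genes (blue) lie near the line at the upper right with mitosis (green) and interferon-gamma response genes (orange) above it, most p53 arrest genes (red) lie at the lower left, and the 5 genes called for a difference between fractions are named together with Cxcl9, Phlda3 and Clu.

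The 2 comparisons with untreated cells share their 4 control arrays, so their values are given side by side only. Against untreated cells 189 genes were called after ablation (1.59%), 107 higher (0.903%) and 82 lower (0.692%), and 1610 after irradiation (13.6%), 603 higher (5.09%) and 1007 lower (8.50%). Of the 964 genes higher after ablation than after irradiation, 633 were lower than untreated after irradiation and had no call after ablation, 43 were higher than untreated after ablation with no call after irradiation, 10 were both, and 270 had a call in neither. Of the 671 lower genes 262 were higher than untreated after irradiation alone, 47 were lower after ablation alone and 355 had a call in neither. The p53 arrest list had a median of 0.01 after ablation, with none called, and of 1.49 after irradiation, with 11 called higher. The mitosis list had -0.07 with none called and -1.40 with 22 called lower, and the replication list 0.02 with none called and -1.10 with 24 called lower. The class II list had 1.59 with all 5 called higher after ablation and -2.34 with all 5 called lower after irradiation. The interferon-gamma list had 0.78 with 7 called higher after ablation, and after irradiation -0.46 with 1 called higher and 5 lower.

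**Figure D4:**
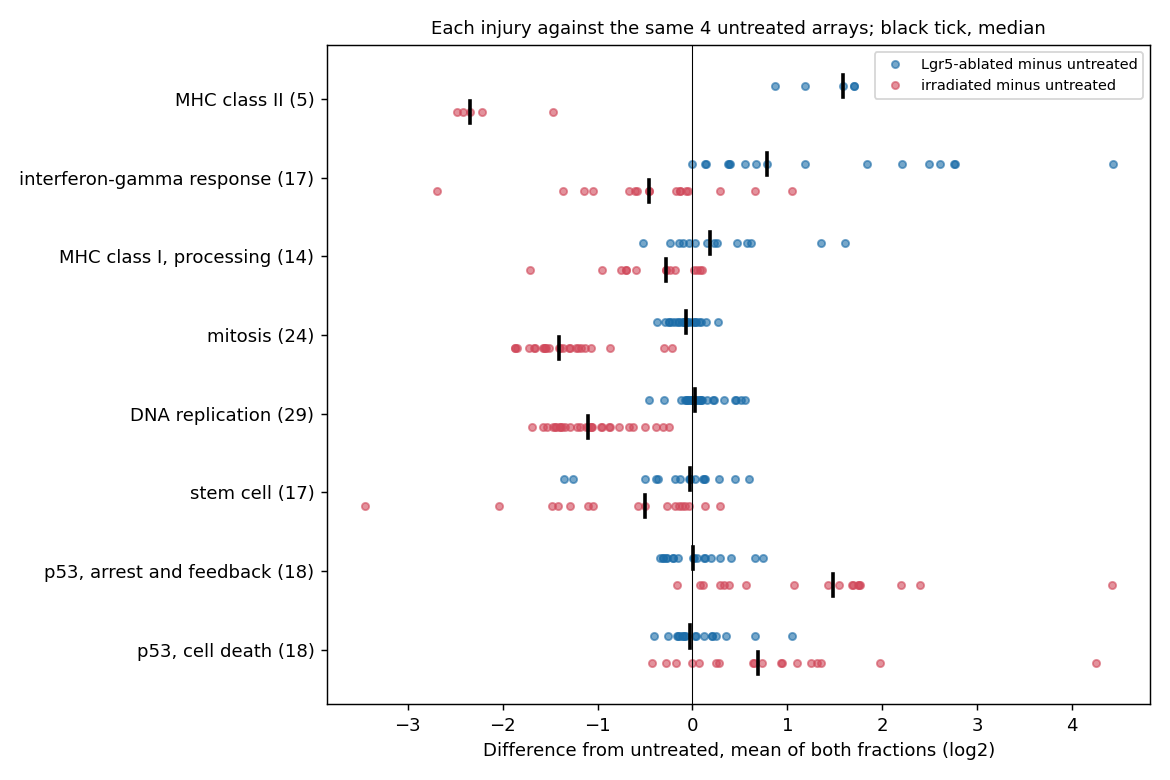
Difference from untreated cells for each member of 8 gene lists, log2, mean of both fractions, after Lgr5 ablation (blue) and after irradiation (red); black ticks are list medians, and both colours share the same 4 untreated arrays. The cell cycle and p53 lists lie around 0 for ablation and away from it for irradiation, and the MHC class II list lies on opposite sides of 0.

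Clu, the secreted chaperone clusterin, which marks rare revival stem cells in injured mouse intestine, read 8.87 and 6.67 in CD24lo and 9.50 and 8.30 in CD24hi after ablation. After irradiation it read 4.60 and 4.55 in CD24lo and 4.69 and 6.21 in CD24hi, and in untreated cells 4.45 to 5.41. The replicates after ablation are spread widely but stay above all others (3.32 ± 0.50, adjusted p = 3.2e-04). Against untreated cells Clu was higher by 3.40 ± 0.50 after ablation (adjusted p = 0.0011) and stood at 0.07 ± 0.50 after irradiation (adjusted p = 0.94). Of 9 measured genes of reserve and label-retaining stem cells, Clu was the 1 called higher and Tert (-1.34) the 1 called lower. The median of the 9 was 0.08, so no change of that list is stated. Of the 13 epithelial repair genes measured 5 were called higher and 1 lower, against 8.13% and 5.66% of all genes. The higher ones include Il1rn, the interleukin-1 receptor antagonist (2.41 ± 0.53, and against untreated cells 3.91 after ablation and 1.497, not called, after irradiation). Anxa10, an annexin of gastric epithelium (2.21 ± 0.37), and the transglutaminase Tgm2 (0.71 ± 0.14) were also higher, and the tight junction gene Cldn4 was lower (-0.81 ± 0.17). The list's median was 0.04, and 2 genes were lower without CD24lo ablated replicate 1 or CD24hi irradiated replicate 2. Fut2, which adds fucose to surface glycans, read 11.59 and 10.03 in CD24lo and 11.29 and 9.94 in CD24hi after ablation against 6.31 and 6.03 and 5.62 and 5.71 after irradiation (4.80 ± 0.58, adjusted p = 4.2e-05), but untreated arrays ranged from 6.03 to 9.57.

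Among genes of inflammatory cell death 5 of 13 were higher and 1 lower, and 2 were lower without CD24hi ablated replicate 1. Of all genes 8.13% were called higher and 5.66% lower, and the median of these 13 was 0.68. Gsdmc2, a pore-forming gasdermin, read 7.46 and 7.21 in CD24lo and 5.26 and 5.52 in CD24hi after ablation. In irradiated cells it read 4.04 and 4.10 in CD24lo and 4.07 and 4.08 in CD24hi, which is close to a signal of 0, and in untreated cells 10.23 and 10.36 in CD24lo and 7.14 and 7.55 in CD24hi. Both injuries lie below the untreated arrays in both fractions, irradiation lower (2.29 ± 0.27, adjusted p = 3.8e-05), and with a pseudocount of 1 the difference was 5.13, with 64 it was 1.09. The necroptosis genes Mlkl (0.997 ± 0.16) and Ripk3 (0.89 ± 0.22), the inflammatory caspase Casp4 (1.05 ± 0.19) and the inflammasome sensor Nlrp6 (1.11 ± 0.21) were higher. Of 12 chemokine and cytokine genes 4 were higher, against the same 8.13% of all genes, with a median of 0.49. Among them were Tnfsf10, the death ligand TRAIL (2.06 ± 0.32), and Ccl28, a chemokine of mucosal antibody-secreting cells (1.02 ± 0.12). The antimicrobial lectins Reg3b (1.19 ± 0.24) and Reg3g (1.13 ± 0.20) were higher as 2 of 7 in their list, whose median was 0.22. The fits that left out CD24lo ablated replicate 1 or 2, or CD24hi ablated replicate 2, called 1 lower gene in that list.

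The 10 called genes with the largest differences toward irradiation whose arrays did not overlap include Phlda3 and Eda2r of the p53 lists. Stox2, a winged-helix protein, was lower after ablation by -4.10 ± 0.75, though untreated arrays ranged from 4.98 to 9.48. Ddit4l, a brake on mTOR signalling, read 4.998 and 4.68 in CD24lo and 5.51 and 5.53 in CD24hi after ablation against 9.04 and 8.88 and 9.37 and 8.71 after irradiation (-3.82 ± 0.33, adjusted p = 1.3e-06). Casp14, a caspase known from skin (-3.58 ± 0.38), the epoxide hydrolase Ephx1 (-3.34 ± 0.25), Zfp365 (-3.14 ± 0.38), the scramblase-family gene Ano3 (-2.93 ± 0.43), the carboxylesterase Ces2b (-2.80 ± 0.40) and the drug efflux pump Abcb1b (-2.75 ± 0.36) complete the 10. The size of some rests on the value added before the logarithm, and with it the order: with 1 and with 64 the difference was -5.18 and -1.77 for Zfp365, -4.60 and -1.72 for Ano3, -4.26 and -1.58 for Abcb1b and -4.76 and -2.31 for Casp14. Of 1457 genes whose ablated arrays lay above the irradiated ones in both fractions (12.3% of all tested) 804 were called, and of 1307 that lay below (11.0%) 575 were called. Of 26 xenobiotic metabolism genes 4 were lower, against 5.66% of all genes, the glutathione transferases Gsta3 (-2.05 ± 0.28) and Gsta4 (-1.05 ± 0.29) and the cytochromes Cyp3a11 (-1.69 ± 0.32) and Cyp2b10 (-0.90 ± 0.28); the count was 2 without CD24lo ablated replicate 1, CD24hi ablated replicate 1 or CD24hi irradiated replicate 2, and 7 without CD24hi ablated replicate 2.

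Of 24 goblet cell genes 8 were called lower after ablation and none higher, against 5.66% of all genes called lower. Their median was -0.35, and all 24 differences were below 0, while 48.3% of all genes had a difference above 0. Spink4, a trypsin inhibitor of goblet cells, read 13.01 and 12.26 in CD24lo and 12.95 and 13.05 in CD24hi after ablation against 13.84 and 13.32 and 13.76 and 13.96 after irradiation (-0.90 ± 0.18, adjusted p = 0.0030). Klk1 (-0.83 ± 0.13) and Bcas1 (-0.76 ± 0.14) were lower too, while Muc2 stood at -0.15 ± 0.18 (adjusted p = 0.64). The goblet count was 5 without CD24lo ablated replicate 2, CD24lo irradiated replicate 1 or CD24hi irradiated replicate 1. Atoh1, the master factor of secretory cells (-0.46 ± 0.14, adjusted p = 0.044), and Bhlha15 (-0.62 ± 0.19, adjusted p = 0.035) were called lower and lost the call in 11 and in 9 of 21 alternative fits. Lyz1 did not pass (-0.06 ± 0.20, adjusted p = 0.88). Of 15 Paneth cell genes 3 were lower, against the same 5.66% of all genes. They were Clps (-1.23 ± 0.19) and Pnliprp2 (-1.18 ± 0.25), which act in fat digestion, and Copz2 (-0.82 ± 0.18). Without CD24lo ablated or irradiated replicate 2, 1 Paneth gene was called higher.

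Of 15 tuft cell genes 3 were higher, Fyb (1.49 ± 0.33), Spib (1.11 ± 0.34) and Avil (0.89 ± 0.23), and the count was 1 without CD24hi ablated replicate 1, CD24lo irradiated replicate 1 or CD24hi irradiated replicate 1 and 5 without CD24hi ablated replicate 2. Of all genes 8.13% were called higher, so no change of the tuft list is stated, and Spib lost its call in 10 of 21 alternative fits. Dclk1, a kinase that marks tuft cells, stood at 0.18 ± 0.32 (adjusted p = 0.76). Of 26 enteroendocrine genes none was called by limma over both fractions; 2 were lower without CD24hi ablated replicate 1, 1 was lower without CD24lo irradiated replicate 2 and 1 was higher without CD24hi ablated replicate 2. The granule protein Chga read 10.23 and 9.34 in CD24lo and 12.64 and 9.49 in CD24hi after ablation against 9.98 and 10.32 and 8.56 and 9.70 after irradiation, so CD24hi ablated replicate 1 alone stands high, and the difference was not called (0.79 ± 0.46, adjusted p = 0.28). CD24hi ablated replicate 1 also holds the highest sum of B and plasma cell genes. Of 17 genes shared by all intestinal epithelium none was called, with a median of -0.0064.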

How the data were processed

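The deposited values are intensities, 1 linear signal per probe set and array on Affymetrix mouse arrays of 45101 probe sets, which the authors computed with MAS5, scaling each array to a common trimmed mean, per the submitters' processing notes and the values. Detection calls, scan dates and the software version are not given in the sources used here. RNA was amplified from the sorted cells by a GeneChip Pico protocol with a biotin label, per the labels' protocols.

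From these, log2(signal + 16) was taken with no further scaling. Of the probe sets 34958 carry 1 gene symbol, 932 several and 9211 none in the platform annotation; only the first were named. A probe set was kept where it lay above its array's median in at least 2 of the 20 sorted arrays, and the one with the highest mean stood for each gene, giving 11854 genes. limma 3.58.1 (R 4.3.3) fitted 1 mean for each of 10 groups over all 20 arrays, with a trended variance prior and 10 residual degrees of freedom, and p-values were adjusted over all genes. The number of arrays limits the precision. No 2 arrays were identical. The code was tested on simulated data.

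The arrays compared and the gene lists were chosen with earlier results of these data known. The genes named are 12 fixed markers, up to 5 called members of each list with the largest difference and its 3 most abundant members, all class II genes, the 10 largest non-overlapping differences each way, and the 5 largest each way between fractions. Promoters are from RefSeq (GRCm38.p6). Alternatives covered pseudocount, filter, scaling, probe set choice, variance prior, arrays fitted, a replicate block and single arrays left out.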

Additional observations from a re-analysis of the deposited data

Results flagged for a closer look

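For 5 genes the difference between Lgr5 ablation and irradiation itself differed between CD24hi and CD24lo cells, by limma's interaction test adjusted over all 11854 genes (883 genes had an unadjusted p under 0.05). All 5 calls were lost in a fit of the 8 compared arrays alone, with adjusted p of 0.061 for AW112010 and 0.19 to 0.64 for the other 4 genes. Ido1, which degrades tryptophan and is induced by interferon-gamma, read 13.36 and 13.80 in CD24lo and 13.40 and 11.81 in CD24hi after ablation, against 13.61 and 13.07 and 7.52 and 8.28 after irradiation. The CD24lo arrays of both injuries and the ablated CD24hi arrays are thus high and the irradiated CD24hi arrays low, an interaction of 4.46 ± 0.61 (adjusted p = 0.0089). AW112010, an interferon-responsive transcript, read 13.15 and 13.17 in CD24lo and 13.10 and 13.02 in CD24hi after ablation, against 13.67 and 13.08 and 10.82 and 10.83 after irradiation, the same order (2.45 ± 0.24, adjusted p = 0.00012). In untreated cells both genes were also higher in CD24lo than in CD24hi arrays.

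Cacna1h, a subunit of a T-type calcium channel, was lower after ablation in CD24lo by -2.53 and stood at 0.69 in CD24hi, an interaction of 3.22 ± 0.49 (adjusted p = 0.018). Lrfn3, a synaptic adhesion protein, stood at -1.58 in CD24lo and 1.89 in CD24hi (3.47 ± 0.56, adjusted p = 0.023). Fkbp11, a chaperone of secretory cells, ran the other way, 1.06 in CD24lo and -1.32 in CD24hi (-2.39 ± 0.37, adjusted p = 0.021). Without CD24hi irradiated replicate 1 AW112010 alone kept its call, and without CD24hi ablated replicate 2 the count was 54.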

How the results depend on the processing

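Counts of called genes moved with the fit. With the compared arrays alone and fraction as a block, 1010 genes differed over both fractions and 62 differed between ablation and untreated. With a mean per group in those arrays alone the counts were 34 in CD24lo, 542 in CD24hi, 0 between fractions (713 at an unadjusted p under 0.05) and 73 for ablation against untreated; averaging the fractions of 1 number gave 102 for the last, 1124 over both fractions and 1126 for irradiation. Without the variance trend 3 genes differed between fractions. Leaving out single arrays gave 828 to 1521 over both fractions, 77 to 277 in CD24lo, 275 to 820 in CD24hi, 1 to 54 between fractions, 119 to 246 for ablation and 788 to 1535 for irradiation against untreated. The lowest came without CD24hi irradiated replicate 1 (828, 275, 1 and 788), CD24lo irradiated replicate 1 (77) and CD24hi untreated replicate 1 (119). Other losses over 1.5 times were 968 over both fractions and 942 for irradiation without CD24lo irradiated replicate 1, 135 in CD24lo without CD24lo irradiated replicate 2, 523 in CD24hi without CD24hi ablated replicate 1, 2 between fractions without CD24hi ablated replicate 1 or CD24lo irradiated replicate 1, and for irradiation 1066 and 1048 without untreated replicate 2 of CD24lo and CD24hi. The cause was not tested. With a replicate block the counts were 1562, 236, 1011, 5, 177 and 1551 in the same order; same-numbered arrays of different conditions correlated at -0.41 to 0.193 in their deviations, so the numbers do not pair them. CD24lo and CD24hi arrays of 1 number correlated at 0.344 (untreated), 0.385 (ablated) and 0.068 (irradiated); the fit takes them as separate samples.

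Signs turned for 5 genes that were not called. Lgr5 read -0.11 with a pseudocount of 64 and -0.51 to 0.62 with single arrays left out. Lyz1 read 0.15 and Muc2 0.0076 after quantile normalization, and Lyz1 -0.16 to 0.037 with arrays left out. Dclk1 read -0.49 with a pseudocount of 1 and -0.045 to 0.40 with arrays left out, and B2m -0.030 to 0.18. In all 2604 values were compared, for 120 named genes over both fractions and for the 5 genes called for a difference between fractions. Of these values 2423 kept direction and side of the threshold, 166 lost the call, 2 gained it and 13 turned sign. With the compared arrays alone and fraction as a block, 8 interferon-gamma genes, 13 p53 arrest genes, 22 mitosis genes and 5 class II genes were called, and no type I interferon or B and plasma cell gene.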

Other observations

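Of 28 genes of the unfolded protein response 5 were called lower, among them Syvn1, a ubiquitin ligase of the endoplasmic reticulum, at -0.82, and of 17 immediate early genes 5, among them the nuclear receptor Nr4a1 at -0.92. The background was 5.66% of all genes called lower. Without CD24hi irradiated replicate 1, as without CD24lo irradiated replicate 1, 1 gene of each list was called, a share near or under that background, so no change of these lists is stated. Of 23 Notch and secretory factors Notch2 was higher by 1.26 ± 0.22 (adjusted p = 9.1e-04) and 3 were lower, among them the Notch ligand Jag1 at -0.75. The 3 were 5 without CD24lo ablated replicate 1 and 1 without CD24lo ablated replicate 2, CD24lo irradiated replicate 1 or CD24hi irradiated replicate 1. All 20 ribosome biogenesis genes had a difference above 0, as did 48.3% of all genes, and their median was 0.43. Against 8.13% of all genes called higher, 3 of the 20 were called, among them nucleolin (Ncl) at 0.70. That count was 1 without CD24lo ablated replicate 1, CD24hi ablated replicate 2, CD24lo irradiated replicate 1 or CD24hi irradiated replicate 1 and 6 without CD24hi irradiated replicate 2. Tert, the telomerase catalytic subunit, was the 1 of 9 reserve stem cell genes called lower (-1.34 ± 0.22, adjusted p = 5.6e-04).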
